A study of Mus musculus with 2 samples.

Results

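The 10 genes described here encode enzymes that remove peroxides and superoxide: the 6 peroxiredoxins (Prdx1 to Prdx6), catalase (Cat), the glutathione peroxidases Gpx1 and Gpx4, and the cytosolic superoxide dismutase Sod1. They were chosen by name from a list of antioxidant enzymes and make up 10 of the 32285 genes in the expression matrices. All 10 were detected in both libraries and in each of 15 marker-gated cell classes. All 10 passed the minimum of 200 UMIs in the 7 classes with at least 100 cells in each library, whereas in the 8 smaller classes 68 member values passed it.

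The cells came from the fetal liver of CD1 mouse embryos at stage E14.5. Livers were depleted of lineage-positive cells and sorted for the LSK (lineage-negative, SCA1+, cKIT+) population, which is enriched for hematopoietic stem cells and multipotent progenitors. An IκBα WT library was made from a pool of 2 embryos and an IκBα KO library from a pool of 3. IκBα, encoded by Nfkbia, is an inhibitor of the transcription factor NF-κB. The titles of both libraries name LT-HSC, whereas the other labels name LSK. With 1 library per genotype there is no replicate check and no test between genotypes, and the effect of the genotype cannot be told apart from that of the library or of the embryos pooled. Every interval given is a 95% interval for counting error only.

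Superoxide made by the respiratory chain and by oxidases is turned into hydrogen peroxide by superoxide dismutases, among them Sod1. Catalase breaks hydrogen peroxide down directly, while peroxiredoxins reduce it through a reactive cysteine that most of them regenerate with thioredoxin, and glutathione peroxidases reduce it with glutathione. Red cells carry large amounts of oxygen and iron-containing heme, and PRDX2, GPX1, catalase and SOD1 are abundant proteins of the mature red cell. Within the fetal liver, erythroid cells outnumber other hematopoietic cells, and hepatoblasts, endothelial cells and macrophages surround them.

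Nfkbia was represented by 1484 UMIs (unique molecular identifiers, each standing for 1 captured transcript) in the WT library and by 7 UMIs in the KO library. The libraries held 3840 WT and 4928 KO barcodes with 109122324 and 100029143 UMIs, and 3458 and 4417 cells passed the cell filter, with medians of 28065 and 19560 UMIs. Barcodes shared by both libraries numbered 7. Male cells made up 0.116% of WT cells and 17.4% of KO cells. Each kept cell was assigned by summed marker levels to at most 1 gate, and 12.7% of WT and 12.1% of KO cells matched none or several. Of the 15 gates, 7 held at least 100 cells in each library, and KO was compared with WT in these. The cells were not only LSK cells by their transcripts: Kit, which encodes cKIT, was at 112 and 108 CPM (UMIs of a gene per 1000000 UMIs of the gate) in the WT and KO stem cell gates, which were rich in the stem cell transcription factor Hlf at 254 and 240.4 CPM. By contrast, Ly6a, the gene of SCA1, was at 25.2 and 32.4 CPM in the stem cell gates but at 0.691 CPM in KO erythroblasts, where the anion exchanger gene Slc4a1 was at 508 CPM. Hlf and Slc4a1 are among the markers that define these gates, so their levels there follow in part from the gating. CPM is a share of the RNA captured, so that a lower level cannot be told apart from more RNA of other genes.

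Sequence features set the members apart before any level is considered. GPX1 and GPX4 are selenoproteins: a TGA codon, normally a stop, is read as selenocysteine, the residue that carries out the reaction. The codon was found at chr9:108339451-108339453 (+ strand, mm10) in Gpx1, as codon 47 of 201, and at chr10:80054737-80054739 (+ strand, mm10) in Gpx4, as codon 73 of 197 in 1 of its annotated coding transcripts. They are shown with 15 coding bases on either side, the selenocysteine codon in capitals.
Gpx1: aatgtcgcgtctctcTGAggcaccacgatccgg
Gpx4: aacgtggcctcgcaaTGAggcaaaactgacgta

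The promoters were searched on both strands in the 250 bases before the RefSeq start for 3 motifs: the antioxidant response element core TGACNNNGC, to which the stress-responsive factor NRF2 binds, and the erythroid motifs AGATAA (bound by GATA factors) and CCACACCC (of the CACCC type, bound by KLF factors). RefSeq (GRCm38.p6) gave windows for 9 of the 10 members. The antioxidant response element core was present in 10.2% of all 32851 promoters, AGATAA in 9.99% and CCACACCC in 3.2%. Among the members, the core was found in Prdx1, 133 to 125 bases before the start, and in Sod1, 56 to 48 bases before it, both on the opposite strand, and CCACACCC in Prdx3, 92 to 85 bases before the start. No AGATAA lay in any member window. A match describes letters only. The 3 windows with a match are shown on the strand of the gene, up to the first base of any annotated gene, with the match in capitals. They are chr4:116685349-116685543 (+) for Prdx1, chr19:60874557-60874788 (−) for Prdx3 and chr16:90220512-90220753 (+) for Sod1.
Prdx1: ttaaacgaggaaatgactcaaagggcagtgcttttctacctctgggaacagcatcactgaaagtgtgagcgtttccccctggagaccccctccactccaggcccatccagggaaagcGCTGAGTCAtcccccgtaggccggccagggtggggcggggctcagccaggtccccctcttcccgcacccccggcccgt
Prdx3: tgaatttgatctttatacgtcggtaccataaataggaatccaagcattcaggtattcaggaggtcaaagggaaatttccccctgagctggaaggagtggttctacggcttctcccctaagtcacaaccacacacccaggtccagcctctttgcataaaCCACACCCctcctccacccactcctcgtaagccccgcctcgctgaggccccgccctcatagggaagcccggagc
Sod1: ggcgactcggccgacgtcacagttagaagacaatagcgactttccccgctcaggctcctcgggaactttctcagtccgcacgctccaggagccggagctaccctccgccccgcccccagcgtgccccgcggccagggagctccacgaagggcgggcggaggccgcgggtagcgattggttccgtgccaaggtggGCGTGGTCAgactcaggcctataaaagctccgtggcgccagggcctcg

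The members differed from each other mainly in where they were expressed. Prdx2, Prdx3 and Gpx1 were highest in erythroblasts, Prdx6 in Kit-positive and Kit-negative erythroid progenitors, Prdx5 in maturing neutrophils, Prdx1, Prdx4 and Cat in hepatocytes, Sod1 in hepatocytes (WT) or endothelial cells (KO), and Gpx4 varied least. The fold between the highest and the lowest gate was 11.3 for Prdx5, 8.41 for Prdx4, 8.40 for Prdx2, 7.01 for Gpx1, 5.65 for Prdx1, 5.02 for Prdx3, 4.20 for Cat, 3.76 for Prdx6 and Sod1, and 2.14 for Gpx4. The levels of different genes are not set against each other here, because 3' counting does not correct for how well each transcript is captured.

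**Figure D1:**
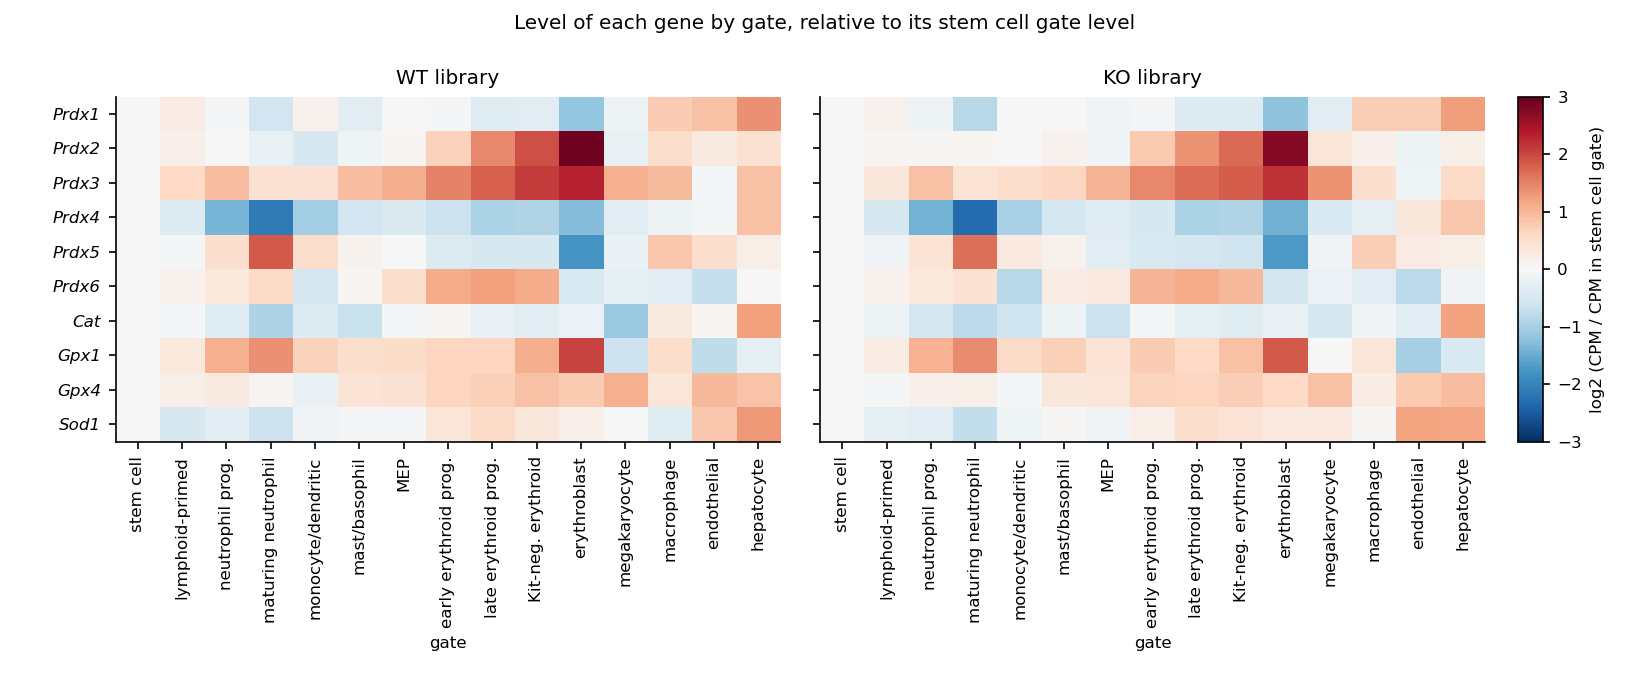
Level of the 10 genes (rows) in 15 gates (columns) in the WT and KO libraries, as log2 of the CPM over the CPM of the same gene in the stem cell gate of that library. Prdx2, Prdx3 and Gpx1 stand highest in the erythroblast gate, Prdx5 in the maturing neutrophil gate, and Prdx1, Prdx4 and Cat in the hepatocyte gate, in both libraries. Sod1 stands highest in hepatocytes in WT and in endothelial cells in KO.

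Erythroid cells were divided into 4 stages. Kit-positive cells with at least 50 CPM of Muc13 and Gata2 together were called early erythroid progenitors (59 WT and 69 KO cells). Kit-positive cells with less of them were called late progenitors (612 and 647). Kit-negative cells low in erythroblast markers, among them Slc4a1 and Alas2, formed the next stage (355 and 524). Kit-negative cells high in these markers were called erythroblasts (573 and 929). Hemoglobin transcripts took 0.236% and 1.03% of the UMIs of early progenitors and 0.294% and 0.443% of those of late progenitors. The shares were 1.12% and 0.951% in Kit-negative cells and 24.7% and 26.1% in erythroblasts. In KO, early progenitors were thus above late progenitors and Kit-negative cells, and the share did not follow the stage order there. Megakaryocyte-erythroid progenitors (MEP, 110 cells in each library) stood before these stages.

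Prdx2 (chr8:84969587-84974834, + strand), which encodes the cytosolic peroxiredoxin of red cells, was higher at each successive erythroid stage. In the WT library its level was 608 CPM (593 to 624) in stem cells, 634 in MEP, 977 in early and 1639 in late erythroid progenitors, 2315 in Kit-negative cells and 4571 (4535 to 4607) in erythroblasts. In the KO library it was 619 CPM (600.4 to 639), 583, 1073, 1564, 1999.9 and 4101 (4069.9 to 4133) in the same gates. From the early progenitors on, neighbouring stages did not overlap in their intervals in either library. The erythroblast level was 7.52-fold (WT) and 6.62-fold (KO) that of stem cells, or 9.96-fold and 8.94-fold with hemoglobin genes left out of the total. Single cells gave the same picture: the CPM per cell in WT erythroblasts had a median of 4771, with 10% of cells below 3257, whereas the stem cell median was 582 with 10% of cells above 924. In the KO library the medians were 4219 and 618, and the tenth percentile of erythroblasts, 2954, again exceeded the ninetieth of stem cells, 956.

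RNA set free by broken cells enters droplets of other cells, and erythroblast RNA was traced with genes of that stage. The stem cell level of Prdx2 was 13.3% (WT) and 15.1% (KO) of its erythroblast level. For Slc4a1 the share was 0.668% and 1.28%, for Alas2, which starts heme synthesis, 0.255% and 0.661%, and for the hemoglobin genes together 0.784% and 0.708%. The stem cell shares of Gpx1 (24.7% and 27.8%) and Prdx3 (20.2% and 22.2%) likewise lay above those of the erythroblast genes.

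Gpx1 (chr9:108338903-108340343, + strand), the main cytosolic glutathione peroxidase, was high at the end of both the erythroid and the neutrophil series. It was at 851 CPM (834 to 869.6) in WT and 852 (829.8 to 875) in KO stem cells, at 1333 and 1291 in late erythroid progenitors, at 1823 and 1572 in Kit-negative cells and at 3447 (3416 to 3478) and 3066 (3038 to 3093) in erythroblasts. The erythroblast level was 4.05-fold and 3.60-fold that of stem cells. In neutrophil progenitors it was at 1784 and 1744 CPM and in maturing neutrophils at 2209.7 (2123 to 2299) and 2289.9 (2212 to 2369.7), the second highest gate. Neutrophil progenitors and Kit-negative erythroid cells, the next in order, were not apart in both libraries. Endothelial cells were at the lower end, at 501 and 429 CPM.

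Prdx3 (chr19:60864051-60874556, − strand) encodes the mitochondrial peroxiredoxin. Its level was 60.2 CPM (55.5 to 65.2) in WT and 64.2 (58.1 to 70.6) in KO stem cells, and MEP already had 2.13-fold and 2.04-fold that level, at 128 and 131 CPM. It then stood at 207 CPM in late progenitors of both libraries, at 259 and 225 in Kit-negative cells and at 298 (288 to 307) and 289 (281 to 297) in erythroblasts. Stem cells and endothelial cells (at 58.7 CPM in KO) were lowest. With hemoglobin genes left out of the total, it was at 208 CPM in late progenitors of both libraries and at 395 and 391 in erythroblasts.

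Prdx6 (chr1:161240112-161251219, − strand), the peroxiredoxin that also has phospholipase activity, followed another course. It was at 316 CPM in WT and 329 in KO stem cells, 438 and 402 in MEP, 680.1 and 670.5 in early progenitors, 741 (731 to 751) and 713 (702 to 724) in late progenitors and 682 and 647 in Kit-negative cells. In erythroblasts it was at 229.6 (222 to 238) and 226 (218 to 233) CPM, 0.310-fold and 0.317-fold the late progenitor level. The early, late and Kit-negative erythroid gates were the 3 highest of all gates and were not all apart from each other. Its erythroblast level also lay below that of stem cells by log2 −0.46 and −0.54, but this direction changed to 0.29 and 0.14 when the median gene was set to 0.

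Gpx4 (chr10:80047166-80056439, + strand), which reduces lipid peroxides in membranes and guards against ferroptosis, was 1.73-fold (WT) and 1.51-fold (KO) higher in erythroblasts (724 and 675 CPM) than in stem cells (419 and 446). Its level was 878 CPM (827 to 932) and 824 (795 to 855) in megakaryocytes and 761 and 853 in hepatocytes, so that the highest gate differed between the libraries, and megakaryocytes, hepatocytes, endothelial cells and Kit-negative erythroid cells were not all apart. With hemoglobin genes left out of the total, erythroblasts (962 and 913 CPM) exceeded megakaryocytes (881 and 842). Sod1 (chr16:90220754-90226329, + strand) differed little between erythroblasts (108 and 104 CPM) and stem cells (96.9 and 85.5), by log2 0.15 (0.04 to 0.27) and 0.29 (0.15 to 0.43). Within the erythroid series it was highest in late progenitors, at 144 and 123 CPM, but without hemoglobin genes in the total it was at 145 and 123 there against 143 and 141 in erythroblasts, which turned the order in KO. Cat (chr2:103453849-103485160, − strand) was at 39.5 and 42.2 CPM in stem cells and 35.1 and 36.6 in erythroblasts, a difference whose intervals included 0 and whose sign turned under some scalings.

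**Figure D2:**
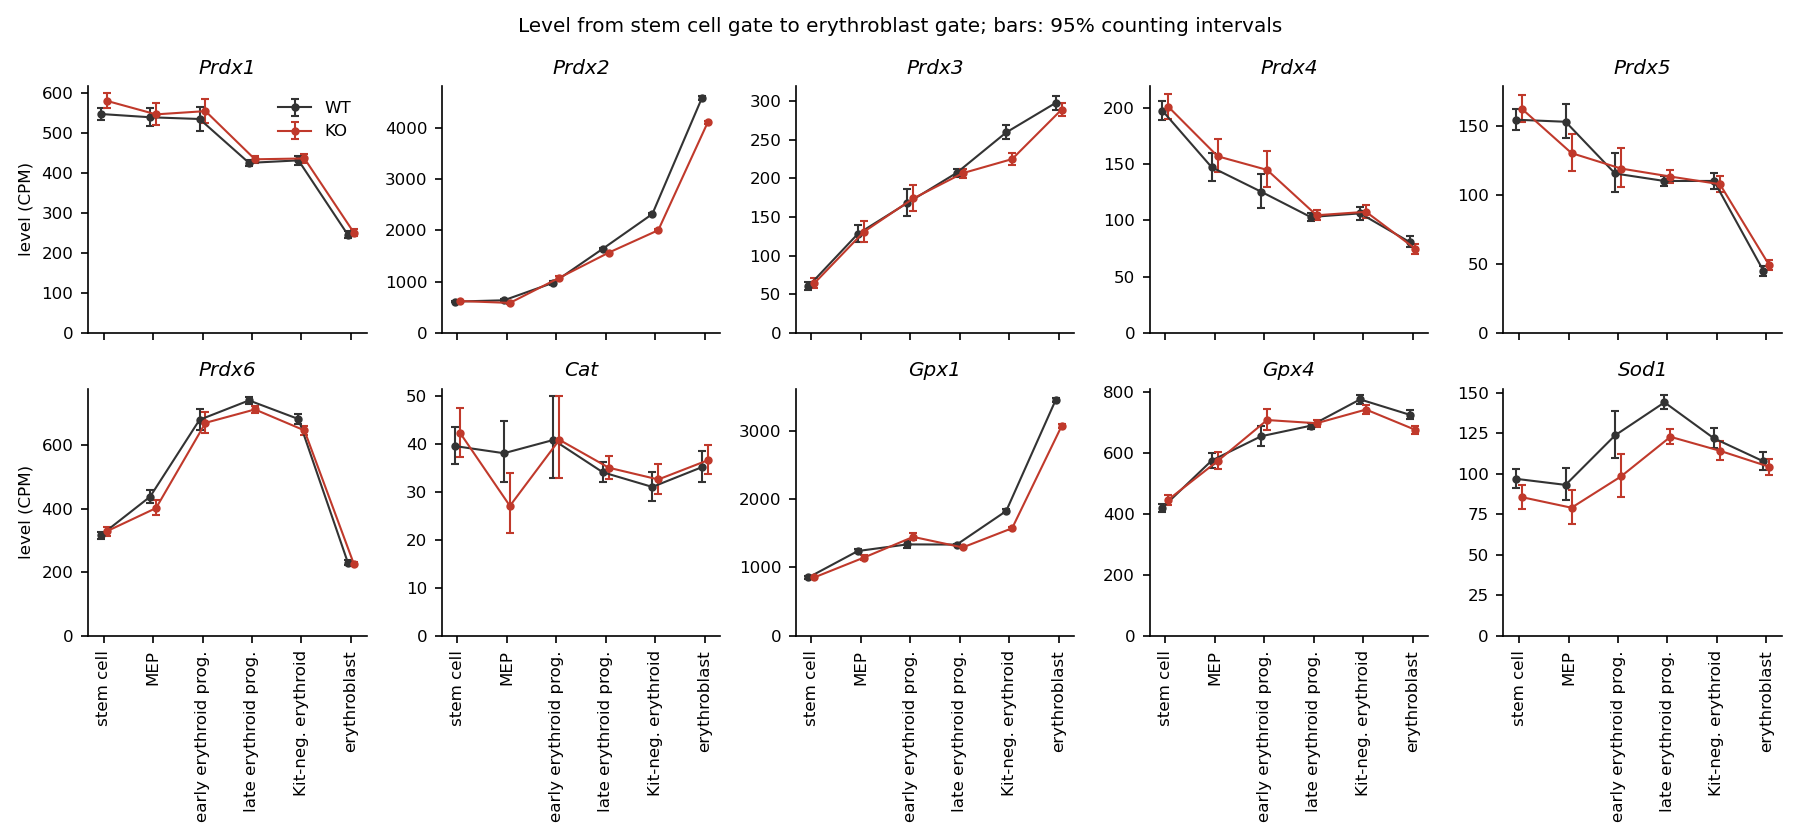
Level in CPM (vertical axes, from 0) of each gene in the stem cell, MEP and 4 erythroid gates (horizontal axes) in the WT and KO libraries, with 95% counting intervals as bars. Prdx2, Prdx3 and Gpx1 end highest in erythroblasts, Prdx6 is highest in late progenitors and ends at 229.6 and 226 CPM, and Prdx1, Prdx4 and Prdx5 are lowest in erythroblasts.

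The other 3 peroxiredoxins were lower in erythroblasts than in any other erythroid gate as a share of all UMIs. With hemoglobin genes left out of the total, Prdx4 was at 107 CPM in WT and 101 in KO erythroblasts against 103 and 105 in late progenitors, so that its order turned in WT. Prdx1 (chr4:116685544-116700822, + strand), a second cytosolic peroxiredoxin, was at 547 CPM (533 to 562) in WT and 580.4 (562 to 599) in KO stem cells and at 245 (237 to 254) and 251 (243 to 259) in erythroblasts, its lowest gate and apart from the next in both libraries. Without hemoglobin genes in the total, KO maturing neutrophils (333 CPM) were below KO erythroblasts (339). Prdx5 (chr19:6906697-6910106, − strand), found in mitochondria, peroxisomes and cytosol, was at 155 and 163 CPM in stem cells and at 45.1 (41.6 to 48.9) and 49.1 (45.7 to 52.6) in erythroblasts, also its lowest gate. Prdx4 (chrX:155323918-155340754, − strand), the peroxiredoxin of the endoplasmic reticulum, was at 198 and 201 CPM in stem cells and 80.8 and 74.6 in erythroblasts.

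A difference was called past the fold threshold when it exceeded log2 0.32 either way in a gene with at least 200 UMIs. Against stem cells, 4 of the 10 members were past the threshold, and higher, in erythroblasts in both libraries (Prdx2, Prdx3, Gpx1, Gpx4), where 12.7% of the 8550 genes tested were, and 4 were past it and lower (Prdx1, Prdx4, Prdx5, Prdx6), where 67% of all genes were. Hemoglobin genes took part of the erythroblast total, and the median gene was itself lower there, by log2 −0.75 in WT and −0.68 in KO. Relative to that median, 6 members were higher (Prdx2, Prdx3, Gpx1, Gpx4, Sod1 and Cat, from 3.66 and 3.41 for Prdx2 to 0.58 and 0.48 for Cat), against 29.6% of all genes, and 3 were lower (Prdx1, Prdx4, Prdx5), against 39.2%.

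Hemoglobin content gave a finer order of the erythroid cells that did not use the gates' marker thresholds for stages. Cells of the 4 erythroid gates were divided by the share of their UMIs from hemoglobin genes into bins of 0 to 0.1%, 0.1 to 1%, 1 to 10%, 10 to 25% and above 25%, with 493, 394, 268, 173 and 271 WT cells and 296, 746, 395, 282 and 450 KO cells. Levels were scaled to the UMIs that were not from hemoglobin genes. Prdx2 was at 1377, 2047, 3246, 5324 and 9765 CPM over the WT bins and at 1185, 1715, 2849, 4723 and 8847 over the KO bins, so that every bin exceeded the one before. Gpx1 was at 1257, 1539.7, 2312, 3884 and 8055 CPM in WT and 1246, 1345, 2081, 3310.1 and 7129 in KO. Both were highest in the last bin, in the cells richest in hemoglobin transcripts. Prdx6 went the other way, with 786 CPM in the lowest and 172 in the highest WT bin, and 809 and 180.1 in KO. Gpx4 was at 706 CPM in the lowest and 1318 in the highest WT bin, and at 717 and 1201 in KO.

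**Figure D3:**
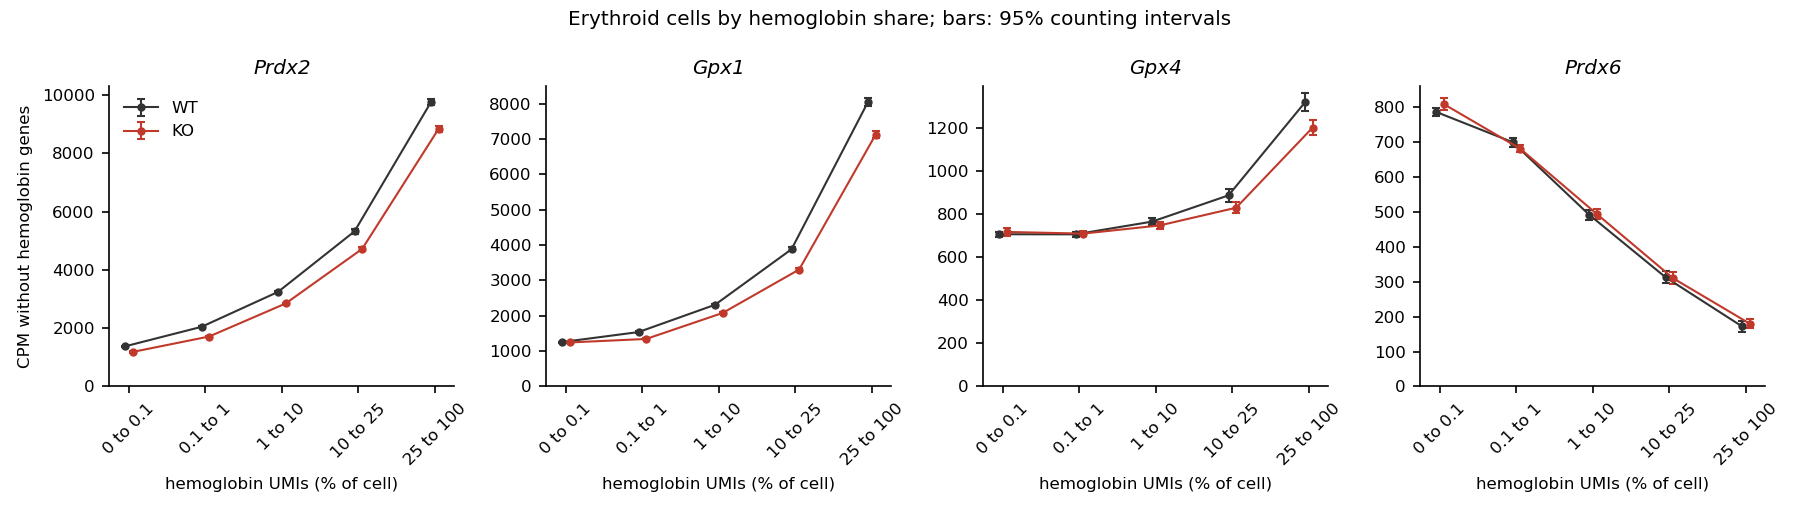
Levels of Prdx2, Gpx1, Gpx4 and Prdx6 (CPM of the UMIs not from hemoglobin genes, axes from 0) in erythroid cells in 5 bins of hemoglobin share (% of the UMIs of the cell), in the WT and KO libraries, with 95% counting intervals. Prdx2 ends at 9765 and 8847 CPM and Gpx1 at 8055 and 7129, with KO below WT for Prdx2 in each bin, while Prdx6 ends at 172 and 180.1.

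Outside the erythroid series, 3 patterns stood out. In neutrophils, Prdx5 was 2.51-fold (WT) and 2.38-fold (KO) higher in the maturing gate, at 551 CPM (508 to 597) and 514 (478 to 553), than in neutrophil progenitors, at 219.6 and 216. The maturing gate, defined by granule and calprotectin genes such as S100a8, held only 39 and 55 cells. Macrophages, with 277 and 272 CPM of Prdx5, came next in order and were apart from both neutrophil gates.

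In hepatocytes (33 and 72 cells), Prdx1 was at 1410.2 CPM (1356 to 1466) and 1391 (1345 to 1438), 2.58-fold and 2.40-fold the stem cell level. Cat, abundant in the peroxisomes of liver cells, was at 92.2 CPM (78.8 to 107) and 97.2 (85.3 to 110.3), 2.33-fold and 2.31-fold. Prdx4, which acts where secreted proteins fold, was at 365 (338 to 394) and 355 (332 to 379), 1.85-fold and 1.77-fold. For each of these 3 genes, the hepatocyte gate was above every other gate in both libraries. Doublet calls made up 12.1% (WT) and 23.6% (KO) of that gate, where summed megakaryocyte markers were at 1773 and 2328 CPM. The part of doublets in these levels was not tested. Sod1 was at 240.2 and 190.4 CPM in hepatocytes and at 169 and 194 in endothelial cells, and these gates were not apart in both libraries. Prdx1 was second highest in endothelial cells (1006 and 961 CPM) and macrophages (926 and 976), which were likewise not apart. Doublet calls made up 4.08% and 12.8% of the macrophage gate.

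Within the stem cell gate, some members differed between proliferating and other cells. Stem cells with at least 500 CPM of 8 proliferation genes (348 WT and 347 KO cells) were set against those with less than 100 CPM (102 and 44 cells). The proliferating cells had the deeper profiles, with medians of 19798.5 against 11539 UMIs in WT and 13866 against 6970.5 in KO, and the part of depth was not tested. Prdx4 was higher in the proliferating cells by log2 0.58 (0.35 to 0.82) in WT and 0.79 (0.33 to 1.29) in KO, and Prdx1 by 0.37 (0.24 to 0.50) and 0.50 (0.25 to 0.76). Prdx2 was lower in them by −0.20 and −0.21. For Gpx1 the WT difference was −0.06 (−0.16 to 0.03) and the KO difference −0.34 (−0.50 to −0.18). Both intervals included 0 for each of the other 6 members.

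The question of the KO comparison was whether loss of IκBα changed these enzymes within a cell class. No member was past the fold threshold in 6 of the 7 gates compared, and differences were small. The 70 values of log2 KO/WT (10 members in 7 gates) ranged from −0.49 to 0.12. Of all genes with at least 200 UMIs in a gate, 6.08% were past the fold threshold either way in stem cells, 7.35% in lymphoid-primed progenitors, 5.86% in neutrophil progenitors, 7.44% in MEP, 5.44% in late erythroid progenitors, 9.93% in Kit-negative erythroid cells and 6.56% in erythroblasts. Against these, 0 of 10 members were past it in each gate but MEP, where 1 of 10 was. That member was Cat, at 38.0 CPM in WT and 27.1 in KO MEP, a log2 KO/WT of −0.49 (−0.91 to −0.08). MEP was the smallest of the 7 gates, and the call for Cat was absent with female cells only, doubled gate thresholds, thinned cells or clusters in place of gates.

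The median log2 KO/WT of the members was 0.06 in stem cells (all genes 0.02), −0.03 in lymphoid-primed progenitors (0.03), −0.02 in neutrophil progenitors (0.02), −0.12 in MEP (0.03), 0.01 in late erythroid progenitors (0.02), −0.07 in Kit-negative cells (0.05) and −0.04 in erythroblasts (0.00). Counting intervals left out 0 for 24 of the 70 values, of which 22 were below 0. The 2 above 0 were both in stem cells, Prdx1 at 0.08 (0.02 to 0.14) and Gpx4 at 0.09 (0.02 to 0.16). An interval for counting error does not cover the spread between embryos, so that 24 counts values measured precisely and not genes changed by the KO.

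In the late progenitor, Kit-negative and erythroblast gates, Prdx2 and Gpx1 were lower in KO with intervals below 0 in each. In early erythroid progenitors, a smaller gate of 59 WT and 69 KO cells, both were higher in KO. There Prdx2 was at log2 0.14 (0.05 to 0.22) and Gpx1 at 0.11 (0.04 to 0.19). For Prdx2 the log2 KO/WT was −0.07 (−0.09 to −0.05) in late progenitors, −0.21 (−0.23 to −0.19) in Kit-negative cells and −0.16 (−0.17 to −0.14) in erythroblasts, but 0.03 (−0.03 to 0.08) in stem cells. For Gpx1 it was −0.05 (−0.07 to −0.02), −0.21 (−0.24 to −0.19) and −0.17 (−0.19 to −0.15) in the same erythroid gates and 0.00 in stem cells. Prdx3 was at −0.21 (−0.28 to −0.13) in Kit-negative cells but at −0.04 in erythroblasts. Prdx6 was at −0.06 in late progenitors and −0.08 in Kit-negative cells, and Gpx4 at −0.06 in Kit-negative cells and −0.10 in erythroblasts, with intervals below 0. Whether the erythroid values differ from those of stem cells was not tested. All these KO/WT values are within the fold threshold. Kit-negative cells had medians of 36712 UMIs in WT and 25779.5 in KO, and hemoglobin shares of 1.12% and 0.951%. Their summed erythroblast markers were at 126 and 125 CPM. The part of depth and stage in the KO/WT values was not tested.

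KO and WT cells were also set against each other within the bins of hemoglobin share. Prdx2 was lower in KO in every bin, by log2 −0.22, −0.26, −0.19, −0.17 and −0.14 from the lowest to the highest share, with each interval below 0. Gpx1 was at −0.01 (−0.04 to 0.02) in the lowest bin and at −0.20, −0.15, −0.23 and −0.18 in the others. The lower KO levels were thus also measured among cells with a like hemoglobin share. The bins match cells by that share and not by stage. In the bin of 1 to 10%, Kit was at 7.36 CPM in WT and 11.3 in KO. It was also higher in KO in the bins of 0.1 to 1% and 10 to 25%, but lower in KO in the lowest bin. Stem cells had hemoglobin shares of 0.193% in WT and 0.185% in KO, above the edge of the lowest bin. The part of stage in the KO/WT values of the bins was not tested.

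Sod1, like Gpx1, was lower in KO in 6 of 7 gates, with 2 intervals below 0 against 5 for Gpx1. In late erythroid progenitors its log2 KO/WT was −0.23 (−0.30 to −0.16), 144 CPM in WT against 123 in KO, and in stem cells −0.18 (−0.33 to −0.03), 96.9 against 85.5 CPM. In MEP, neutrophil progenitors, Kit-negative cells and erythroblasts it was −0.24, −0.18, −0.09 and −0.05 with intervals that included 0, and in lymphoid-primed progenitors it was 0.03. Over hemoglobin bins it was −0.46 (−0.57 to −0.35), −0.21, −0.17, −0.10 and 0.06, the intervals of the last pair of bins including 0. Sod1 overlaps Scaf4 on the other strand, as Prdx2 overlaps Rnaseh2a and Junb, and Prdx5 Trmt112.

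**Figure D4:**
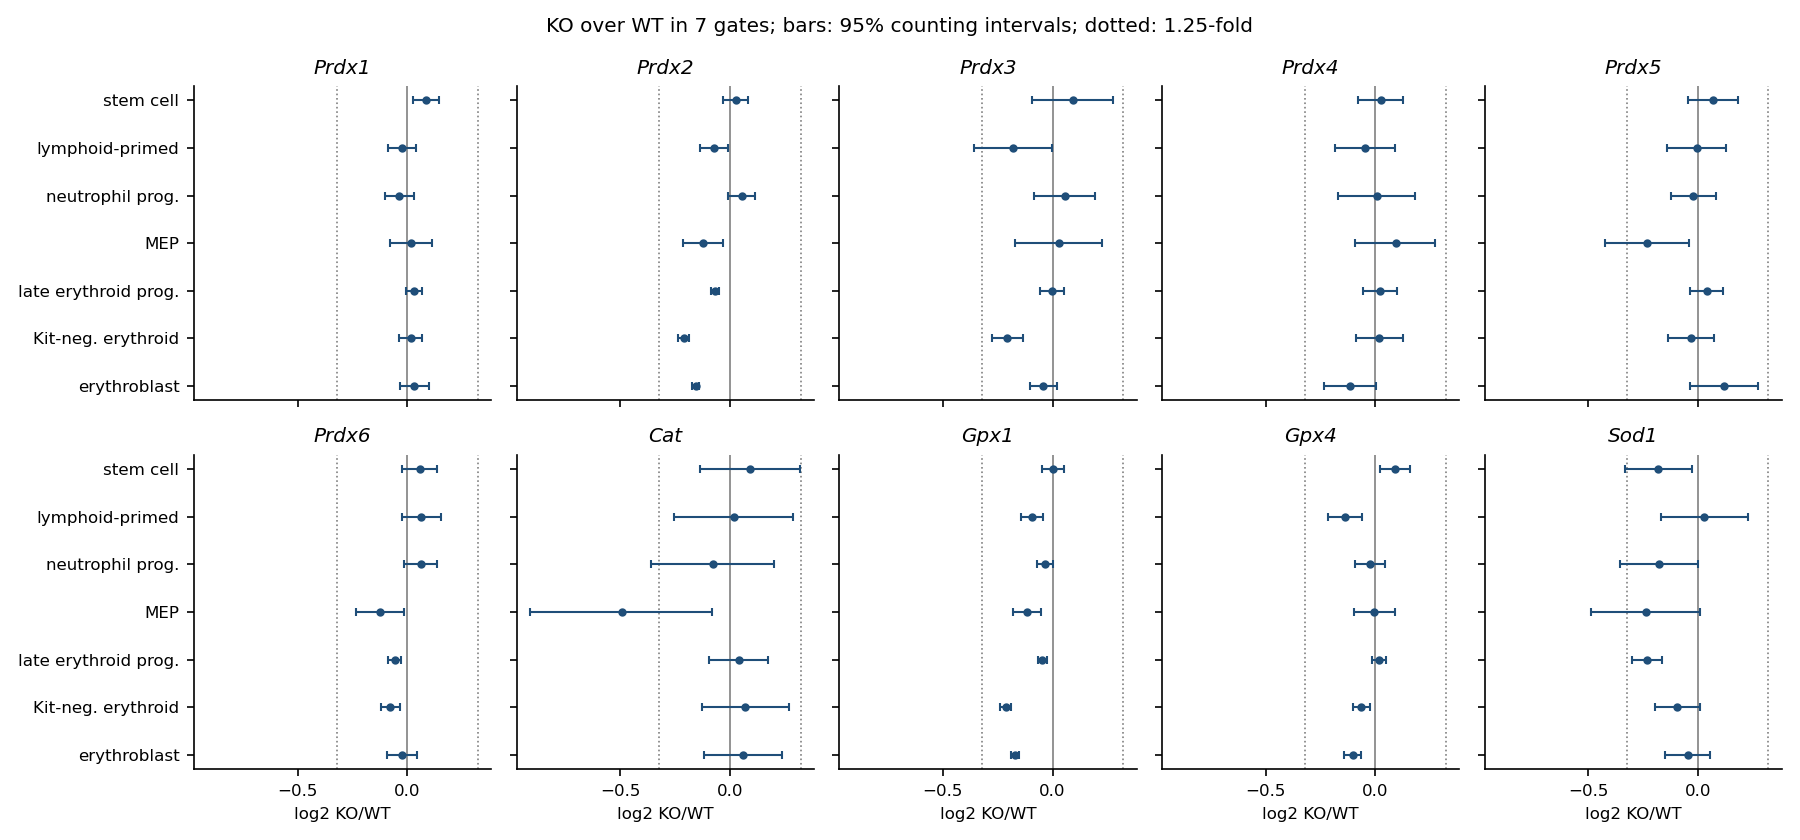
Log2 KO/WT (horizontal axes) of each gene in the 7 gates with at least 100 cells in each library, with 95% counting intervals as bars, dotted lines at the fold threshold and a line at 0. Points lie between −0.49 and 0.12. Cat in MEP is the one point past a dotted line. Prdx2 and Gpx1 lie below 0 in the 3 erythroid gates shown, which do not include early erythroid progenitors.

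In the 8 smaller gates, 12 of 68 member values were past the fold threshold. These were 1 of 7 members tested in maturing neutrophils (10.9% of all genes there), 1 of 9 in monocytes and dendritic cells (11.8%), 1 of 7 in mast cells and basophils (18.9%), 1 of 9 in early erythroid progenitors (10.3%), 3 of 9 in megakaryocytes (17.6%), 2 of 9 in macrophages (18.4%), 2 of 8 in endothelial cells (13.6%) and 1 of 10 in hepatocytes (9.96%). Gpx1 was higher in KO megakaryocytes by 0.61 (0.49 to 0.73), Prdx1 in mast cells and basophils by 0.45 and Prdx4 in endothelial cells by 0.41, and Sod1 was at −0.33 in early erythroid progenitors and −0.34 in hepatocytes. The others were values of Prdx2 and Prdx3.

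The KO library held cells of both sexes, and its male and female cells come from different embryos, so that sex and embryo cannot be told apart. Of 70 comparisons of male with female KO cells (10 members in 7 gates), 13 intervals left out 0, 7 higher and 6 lower in male cells. The largest of these 13 in size was Prdx2 in neutrophil progenitors, at log2 −0.51 (−0.66 to −0.36) between 44 male and 153 female cells, followed by Cat in late erythroid progenitors, at −0.47 (−0.76 to −0.18). Within erythroblasts Prdx1 was at 0.26, Prdx6 at 0.23, Prdx2 at −0.06 and Gpx1 at −0.06. For X-linked Prdx4, every interval included 0.

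The wider pathways were examined through 7 lists of 72 genes. The list named for the thioredoxin system, which hands electrons to peroxiredoxins, also held other genes, such as those of glutaredoxins and Txnip. Of its 13 genes tested, 4 were past the fold threshold and higher in erythroblasts than in stem cells. A further 7 were lower, beside 12.7% and 67% of all genes. The higher genes with the largest folds, singled out after their values were seen, were the iron-sulfur cluster glutaredoxin Glrx5 at 7.67-fold (WT) and 6.98-fold (KO), the mitochondrial thioredoxin reductase Txnrd2 at 5.05-fold and 4.71-fold, and Srxn1, whose product restores overoxidized peroxiredoxins, at 4.27-fold and 6.67-fold. The mitochondrial Txn2 was at 1.46-fold and 1.34-fold. The cytosolic Txn1 and Txnrd1 were at 0.697-fold and 0.489-fold in WT and 0.667-fold and 0.546-fold in KO, and the thioredoxin inhibitor Txnip at 0.168-fold and 0.183-fold.

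In the glutathione system, 6 of 12 genes tested were higher and 4 lower, beside the same 12.7% and 67%. Mgst3, a membrane-bound glutathione transferase and peroxidase, was at 75.2 CPM in WT and 78.0 in KO stem cells and at 1234 and 1169 in erythroblasts, 16.4-fold higher in the WT library. Both subunits of glutamate-cysteine ligase, which limits glutathione synthesis, were among the higher genes, Gclm at 7.79-fold and 6.55-fold and Gclc at 2.50-fold and 2.81-fold, as was glutathione synthetase Gss at 3.29-fold and 3.38-fold. Gstm1 was at 0.0418-fold and 0.0612-fold.

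The other lists are given by their counts, to be read against 12.7% of all genes higher and 67% lower. The counts of genes higher and lower were 0 and 3 of 6 for other superoxide and repair enzymes, 1 and 4 of 6 for NADPH supply, 2 and 3 of 8 for regulators and NRF2 targets, 0 and 5 of 6 for the machinery that inserts selenocysteine, and 0 and 4 of 5 for oxidase subunits. Taldo1 of the pentose phosphate pathway was the NADPH supply gene that was higher, at 1.83-fold in both libraries. Cyba, a subunit of the superoxide-producing NADPH oxidase, was at 0.0400-fold and 0.0403-fold. Relative to the median gene the counts of higher and lower were 5 and 4 for the thioredoxin system, 8 and 4 for the glutathione system, 3 and 2 for other superoxide and repair enzymes, 3 and 3 for NADPH supply, 4 and 0 for regulators and NRF2 targets, 1 and 2 for the selenocysteine machinery and 0 and 4 for oxidase subunits, where 29.6% of all genes were higher and 39.2% lower.

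**Figure D5:**
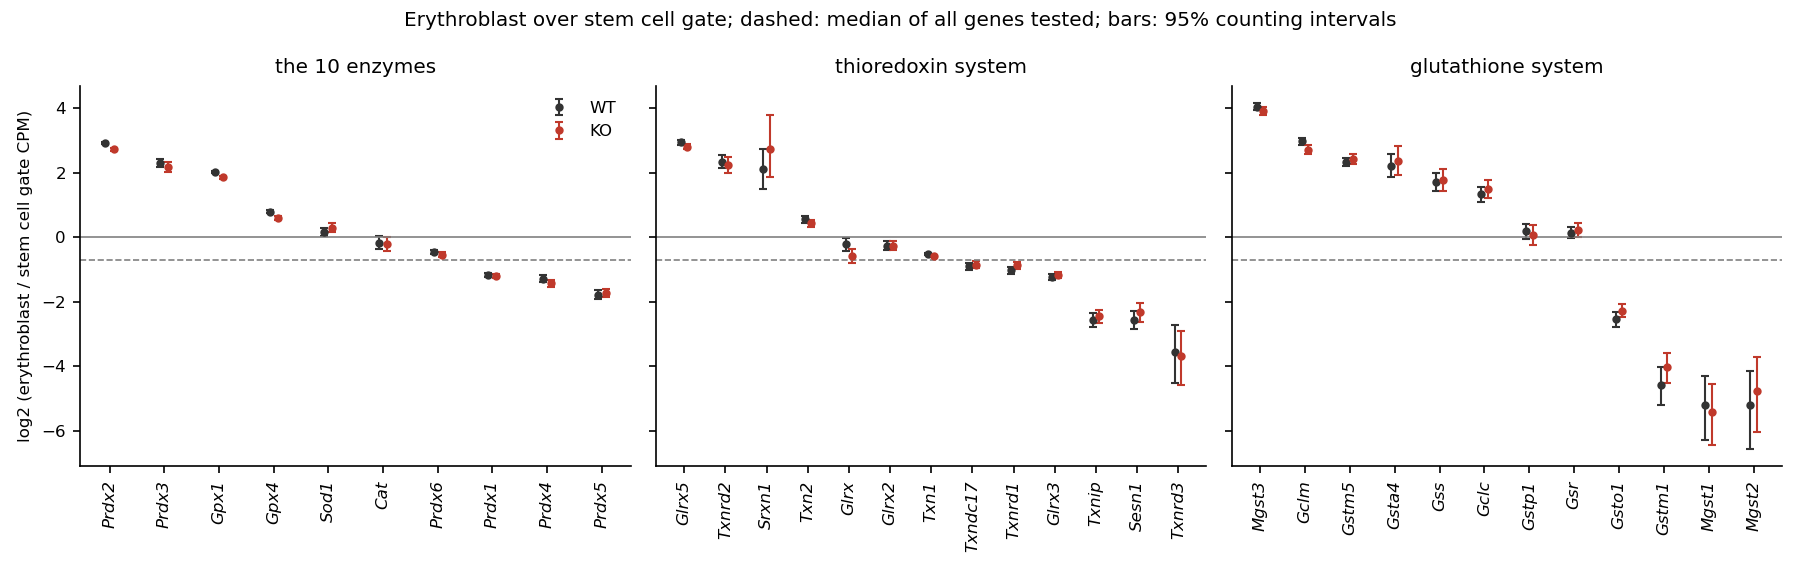
Log2 of the erythroblast over the stem cell CPM (vertical axis) for the 10 enzymes and the tested genes of the thioredoxin and glutathione systems, in the WT and KO libraries, with 95% counting intervals, a line at 0 and a dashed line at the median of all genes tested. Prdx2, Glrx5 and Mgst3 stand highest in their panels, at 7.52-fold, 7.67-fold and 16.4-fold in WT.

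Between KO and WT, the thioredoxin, other superoxide and repair, and selenocysteine lists had 0 genes past the fold threshold in all 7 gates. Genes tested per gate numbered 8 to 14, 4 to 6 and 5 to 6, and 5.44% to 9.93% of all genes were past it. Of the glutathione list, 2 of 9 genes were higher and 2 lower in lymphoid-primed progenitors, beside 7.35%. In stem cells and neutrophil progenitors 2 of 11 were lower (6.08% and 5.86%), and in MEP 1 of 6 (7.44%). In late erythroid progenitors 1 of 10 was lower (5.44%), in Kit-negative cells 1 of 9 (9.93%). In erythroblasts 1 of 9 was higher and 1 lower (6.56%). The glutathione list held the gene that differed in most gates: Gstp1, a cytosolic glutathione transferase, was lower in KO in all 7, by log2 −0.54 in stem cells to −0.91 in MEP, and in late erythroid progenitors it was at 50.2 CPM in WT and 28.7 in KO (−0.81, −0.94 to −0.67). Reads of Gstp1 could have been divided with its near-identical copies Gstp2 and Gstp3, so its values are uncertain. Mgst2 was lower in stem cells (−0.48), lymphoid-primed progenitors (−0.47) and neutrophil progenitors (−0.66). Gclm and Gclc were higher in KO lymphoid-primed progenitors, by 0.51 and 0.39, and Gsto1 in erythroblasts, by 0.34. In the remaining lists, G6pdx, which opens the pentose phosphate pathway, was higher in KO stem cells by 0.44, of 6 NADPH supply genes tested. The oxidase subunit genes Ncf1 and Ncf4 were at −0.82 and 0.52 there, and Ncf4 at 0.39 in lymphoid-primed progenitors, of 5 tested in either gate. Of the regulators, Foxo3 was lower in neutrophil progenitors (−0.43), where Bach1 was at 0.33, of 6 tested. Sqstm1 was at −0.34 in MEP, of 4 tested. The intervals of Bach1 and Sqstm1 included 0.

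Each member was compared across the 30 points given by 15 gates in 2 libraries with 5092 other genes expressed at 50 CPM or more in at least 1 gate. The points share libraries and cell classes, and the correlations of log2(CPM + 1) are descriptions. The genes most like Prdx2 were Ubac1 (Pearson r 0.98), Pigq (0.964) and Josd2 (0.96). Those most like Prdx3 were Glrx5 (0.952), Psmf1 (0.947) and Bola3 (0.940), and those most like Gpx1 were 4930523C07Rik (0.873), Taldo1 (0.853) and Svip (0.830). The pattern of Cat was most like that of Car3 (0.866) and Phlda2 (0.837), that of Sod1 like Fabp5 (0.886), Zfyve21 (0.856) and Ddah1 (0.844), and that of Gpx4 like Daam1 (0.897), Nckap1 (0.891) and Mrpl53 (0.865). For Prdx1 the genes were Acaa1a (0.893), Nr2f6 (0.891) and Tmem37 (0.887), for Prdx4 Arl3 (0.878), Fads1 (0.851) and Col18a1 (0.850), for Prdx5 Tmed3 (0.912), Spcs2 (0.906) and Nucb2 (0.894), and for Prdx6 Aimp1 (0.912), Maz (0.904) and Slc19a1 (0.903). Among the members themselves, Prdx2 and Prdx3 were most alike (0.839), followed by Prdx1 and Prdx4 (0.798), and Prdx4 and Gpx1 were most opposed (−0.817).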

How the data were processed

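Single-cell 3' v3 libraries (10x Genomics) were analysed from the deposited raw UMI counts per gene and barcode. The submitters' processing notes name Cell Ranger 6.0.0 and mm10, and the filtered matrices were used as the authors deposited them. Barcodes were dropped when fewer than 1000 genes were detected or when over 20% of UMIs were mitochondrial. Scrublet (scanpy 1.11.5) marked 3.90% of WT and 5.80% of KO cells as doublets, which were kept in the reported values and left out in an alternative. Cells were gated on summed CPM of marker lists. The markers were fixed, but the thresholds were set after marker levels had been seen, and rebuilt classes may differ from those of the study. The members, the lists and the comparisons were chosen with earlier results of these data known.

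UMIs were summed per gate and library and divided by the gate's total (CPM). Levels carry exact Poisson intervals, and ratios exact conditional (Clopper-Pearson) intervals, at 95%. A gene was called when its log2 ratio exceeded 0.32 either way on at least 200 UMIs. Genes named were all 10 members, list genes past that fold with an interval leaving out 0, and the 3 genes most correlated with each member. Bach1 and Sqstm1, past that fold, were named as well although their intervals included 0. A marker gene and a correlated gene that fall under these rules are not reported here. The calculation of KO/WT was tested on simulated data. Gene positions are from GENCODE vM21, on the same assembly, and promoters from RefSeq GRCm38.p6. Work was done in Python 3.11.15 with numpy 2.4.6, scipy 1.17.1 and pandas 2.3.3. Alternatives covered cell filters, doublets, sex, gate thresholds, thinning to 8500 UMIs per cell, clusters (23, named from the same markers), scaling, averaging over cells and the minimum of UMIs.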

Additional observations from a re-analysis of the deposited data

Results flagged for a closer look

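In gates with fewer than 100 cells in a library, Prdx2 and Prdx3 were each past the fold threshold in KO against WT in opposite directions in different gates, with counting intervals that left out 0. The difference between gates was not tested, and between 9.96% and 18.9% of all genes passed the threshold in the smaller gates. Prdx2 was lower in KO endothelial cells, from 736 to 556 CPM (log2 KO/WT −0.41, −0.58 to −0.23), and in KO macrophages, from 870.1 to 686 CPM (−0.34, −0.45 to −0.24). It was higher in KO maturing neutrophils, from 518 to 648 CPM (0.32, 0.17 to 0.48), in monocytes and dendritic cells, from 434 to 613 CPM (0.50, 0.34 to 0.66), and in megakaryocytes, from 520.4 to 793 CPM (0.61, 0.49 to 0.73). Prdx3 was lower in KO macrophages, from 115 to 89.1 CPM (−0.37, −0.66 to −0.09), and higher in KO megakaryocytes, from 127 to 162 CPM (0.36, 0.10 to 0.62).

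The hemoglobin share of these gates moved the same way for Prdx2 in 4 of the 5. It was 0.567% in WT and 1.48% in KO maturing neutrophils, 0.0636% and 0.327% in monocytes and dendritic cells, 0.323% and 2.11% in megakaryocytes, and 0.716% and 0.405% in endothelial cells, while macrophages had 1.17% and 1.19%. The megakaryocyte gate held 28 WT and 163 KO cells with medians of 44406 and 10397 UMIs. The part of erythroid RNA and of depth in these differences was not tested.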

How the results depend on the processing

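No paired analysis was possible because there is a single library of either genotype. In the 7 gates compared, all 84 alternative values of the members' median KO/WT stayed close to the reported ones, and 76 of 84 alternative counts of members past the fold threshold were kept. The count in MEP went from 1 to 0 with female cells only, doubled gate thresholds, thinned cells, clusters in place of gates or a minimum of 1000 UMIs. In neutrophil progenitors it went from 0 to 1 with clusters and with the mean over cells, and in Kit-negative erythroid cells from 0 to 2 with clusters. Of single KO/WT values 641 of 700 were kept and 59 moved beyond their counting interval. Only 1 of the 70 reported values was called, Cat in MEP, and it stayed below 0 in all 11 settings. Some values that were not called turned in sign. KO/WT of Prdx2 in neutrophil progenitors, for example, lay between −0.12 and 0.17, above 0 in 7 settings and below 0 in 4. Over 11 settings KO/WT of Prdx2 lay between −0.46 and −0.12 in Kit-negative cells and between −0.18 and −0.13 in erythroblasts, that of Gpx1 between −0.27 and −0.11 and between −0.22 and −0.14, and that of Sod1 between −0.31 and −0.19 in late progenitors. Of the erythroid levels over stem cells, 49 of 80 moved with doubled gate thresholds, 36 with median-of-ratios factors (2 more turned), 35 with thinned cells, 31 of 60 with clusters (4 more turned) and 29 of 80 without hemoglobin, mitochondrial and ribosomal protein genes. The mean over libraries of log2 erythroblast over stem cell level went for Prdx2 from 2.82 to 3.21 without hemoglobin, mitochondrial and ribosomal protein genes and 3.54 with median-of-ratios factors, and for Gpx1 from 1.93 to 2.32 and 2.65, and to 1.75 with clusters. Prdx6 in erythroblasts over late progenitors went from −1.67 to −1.50 with at least 2000 genes per cell, −1.73 without doublets, −1.71 in female cells, −1.56 with thinned cells, −1.42 with clusters, −1.21 and −0.92 with these scalings and −1.86 with the mean over cells. Directions that turned among called values were those of Prdx6 in erythroblasts over stem cells (0.29 in WT and 0.14 in KO with median-of-ratios factors) and, with clusters, of Prdx1 (0.33 and 0.16) and Sod1 (−0.46 and −0.49) in Kit-negative cells over stem cells. Cat in erythroblasts over stem cells, not called, lay above 0 in 3 (WT) and 2 (KO) of 11 settings, up to 0.58. The cause was not tested. Clusters held no early erythroid progenitor class, so it has no value there. Small gates and 1 library per genotype limit what the depth can show.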
